A study of Mus musculus with 5 samples.

Results

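The Notch genes read on the mouse array were 10 of 37074 gene names: the ligands Dll1, Dll4, Jag1 and Jag2, the receptors Notch1, Notch2 and Notch4, the transcription factor Rbpj, and the target genes Hes1 and Hey1. They were chosen by name, and all 16 of the 56605 probes that carry these names were used. The 5 arrays, 1 per condition, held liver sinusoidal endothelial cells (LSECs, the lining cells of the liver capillaries), tumor endothelial cells (TECs) of tumors grown from the hepatoma lines HAK-1B, Hepa1-6 and KYN-2, and the Hepa1-6 line in culture. The first and last of these lines are human and Hepa1-6 is from mouse, and each was grown in the mouse liver before CD31-positive cells were taken with magnetic beads. The labels give the strain C57BL/6 for the LSEC sample and all TEC samples and C57L for the cultured cells, and no age, treatment or number of animals per sample. The methods give female mice of 1 stated age in weeks, and the number of mice per experimental group but not per array. They add nude BALB/c hosts without saying which tumors grew in them, and their paragraph on the arrays names Huh-7 where the labels name HAK-1B. No replicate, and so no test, stands behind any value.

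Notch signaling passes between touching cells. A ligand of the Delta (Dll) or Jagged (Jag) family on one cell binds a Notch receptor on its neighbor, the receptor is cut, and its intracellular part enters the nucleus, joins Rbpj and switches on genes such as the repressors Hes1 and Hey1. In vessels, Dll4 and Notch1 hold back the sprouting of tip cells, Jag1 can oppose Dll4, Notch4 is largely endothelial, and Notch in the sinusoidal endothelium is known to shape the identity of these cells.

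Signals are gProcessedSignal, the intensity of a spot after the scanner software's own processing, on a log2 scale and quantile normalized over the 5 arrays. A ratio is the difference of 2 such values for 1 probe, so it compares arrays and never 2 genes. A probe was taken as measured where the scanner software flagged it well above background. Spots repeated on an array differed by a median coefficient of variation between 2.62% and 3.08%, a figure that says nothing of how animals vary. The share of probes well above background was 78.1% on the Hepa1-6 TEC array, the most of the 5, and 44.6% on the array of cultured cells, the fewest. The lowest log2 signal so flagged was 2.85 in Hepa1-6 TECs and 5.96 in cultured cells. It was 4.68 in LSECs, 4.28 in HAK-1B TECs and 4.65 in KYN-2 TECs. A dim signal can therefore carry the flag in Hepa1-6 TECs and not elsewhere. All TECs were hybridized on 1 slide, the LSEC and cultured-cell arrays on 2 others, and slide and group cannot be told apart. In sorted cells measured as a bulk, fewer cells of a type and less RNA per cell cannot be told apart.

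The sequences of 3 probes are printed. The Notch1 probe is the one its values and calls rest on. The Notch4 and Rbpj probes are the second probes of their genes, against which the values of the probe with the highest mean signal are set, and no call rests on them. The Notch1 probe lies at chr2:26319440-26319499 (mm9, minus strand). The Notch4 probe aligns to chr17:34721567-34721775 (mm9, plus strand), a span of 209 bases for a probe of 60 bases, so 149 genomic bases are not in it. The Rbpj probe lies at chr5:54027234-54027293 (mm9, plus strand).
Notch1 A_55_P2171897: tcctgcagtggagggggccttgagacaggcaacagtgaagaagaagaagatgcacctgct
Notch4 A_55_P2740966: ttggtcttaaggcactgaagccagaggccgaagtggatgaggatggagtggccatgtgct
Rbpj A_55_P2929453: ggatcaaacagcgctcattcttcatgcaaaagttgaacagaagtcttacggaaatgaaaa

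Rbpj binds DNA at a core of TGGGAA. This motif was searched on both strands in the 250 bases before each start site of a table taken from RefSeq (GRCm38.p6), with 10 start sites of 8 of the Notch genes. Hes1 and Hey1 were not searched. The motif occurred before 21.6% of the 32851 start sites of all genes. Among the 8 genes searched, it occurred before both start sites of Rbpj and at no other. The window of the first Rbpj start site (chr5:53590096-53590345, plus strand) is shown with both matches in capitals, 1 on each strand. They begin 149 and 65 bases before the start.
Rbpj: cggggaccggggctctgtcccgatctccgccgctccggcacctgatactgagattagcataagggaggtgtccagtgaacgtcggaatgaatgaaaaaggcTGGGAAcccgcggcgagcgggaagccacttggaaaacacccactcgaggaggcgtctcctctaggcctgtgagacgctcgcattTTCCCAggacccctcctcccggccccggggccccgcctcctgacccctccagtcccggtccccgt
The window of the second start site overlaps this one and holds the second of these matches, at 205 bases before its own start. A match is a description of the letters, and binding was not measured.

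**Figure D1:**
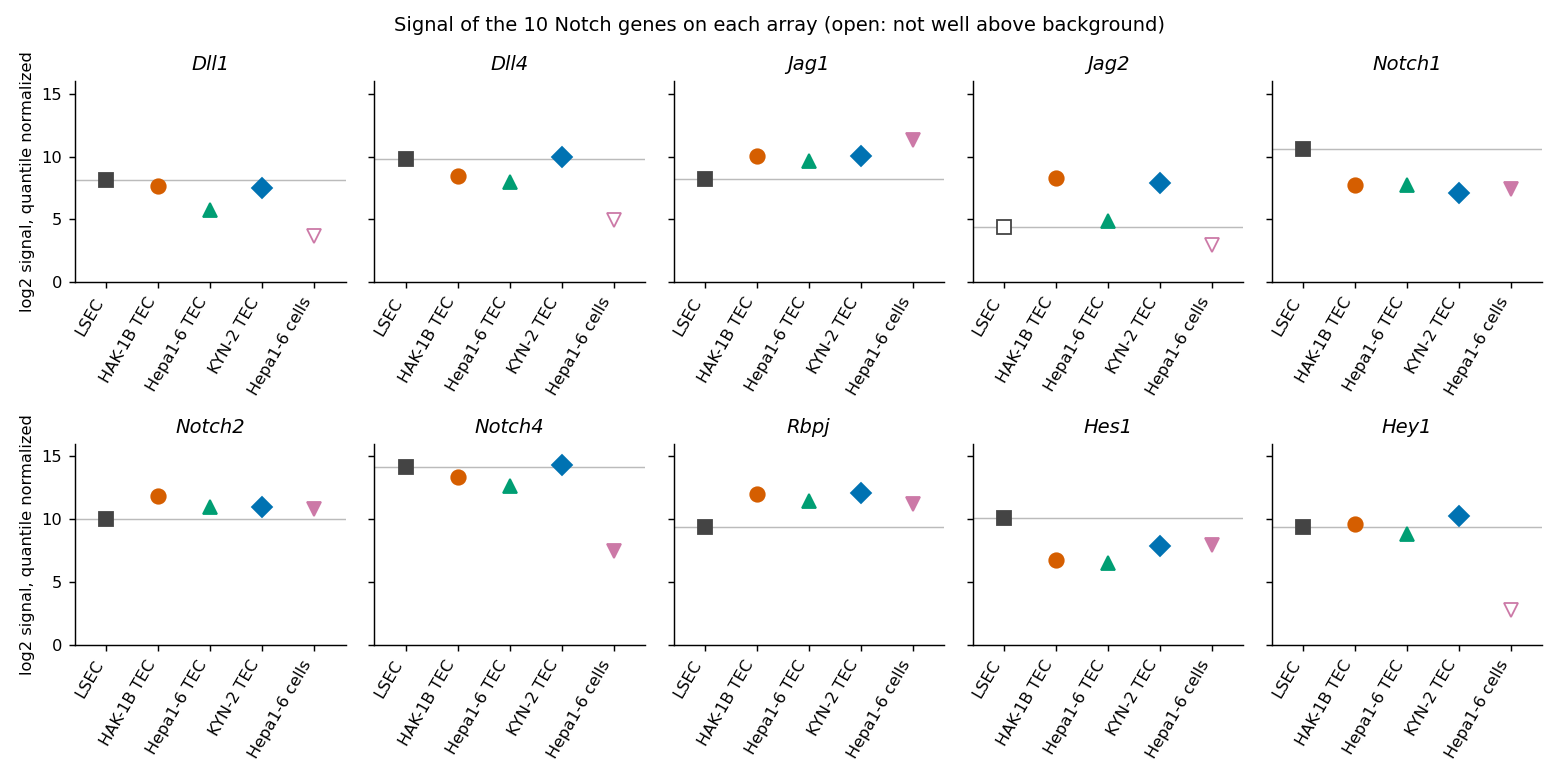
Quantile-normalized log2 signal of the 10 Notch genes, 1 panel per gene, on the 5 arrays. Each point is 1 array, open points are not well above background, and the grey line is the LSEC value. Jag1, Notch2 and Rbpj lie above the line on every other array, and Notch1 and Hes1 lie below it on every other array.

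Among the ligands, Jag1 was higher in every TEC, Jag2 was well above background in TECs alone, and Dll1 and Dll4 were lower in Hepa1-6 TECs. Jag1, the Jagged ligand of many vessel and bile duct cells, had a log2 signal of 8.25 in LSECs, 10.03 in HAK-1B TECs, 9.63 in Hepa1-6 TECs, 10.08 in KYN-2 TECs and 11.28 in cultured Hepa1-6 cells. It was thus lower in LSECs than on any other array. The ratios to LSEC were 3.43-fold, 2.60-fold and 3.56-fold in the TECs, in the same order, with a mean log2 ratio of 1.66 ± 0.25 (SD over the 3 tumor lines, n = 3), and 8.14-fold in the cultured cells.

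Jag2, the second Jagged ligand, had a log2 signal of 4.40 in LSECs and 3.01 in cultured Hepa1-6 cells, not well above background on either array. The TEC values were 8.28 (HAK-1B), 4.91 (Hepa1-6) and 7.89 (KYN-2), all well above background. HAK-1B and KYN-2 TECs were far above the LSEC array and Hepa1-6 TECs were close to it. Against the lowest signal that counts as well above background on the LSEC array, Jag2 was at least 12.2-fold higher in HAK-1B TECs, at least 9.29-fold higher in KYN-2 TECs and at least 1.17-fold higher in Hepa1-6 TECs. These bounds hold for the quantile-normalized signals and depend on the processing. The log2 difference from the LSEC signal, itself not well above background, was 3.88, 0.51 and 3.49 in HAK-1B TECs, Hepa1-6 TECs and KYN-2 TECs. It was 2.07, 0.18 and 1.78 with normexp background correction, below these bounds, and 3.95, 1.54 and 3.53 with scaling to the 75th percentile of each array.

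Dll1, a Delta ligand, had log2 signals of 8.12 in LSECs, 7.68 in HAK-1B TECs, 5.75 in Hepa1-6 TECs and 7.52 in KYN-2 TECs. Only Hepa1-6 TECs stood far below LSECs, at a 5.17-fold lower level, against 1.35-fold and 1.52-fold in HAK-1B and KYN-2 TECs. The log2 ratio of Hepa1-6 TECs was -2.37, against -1.72 with scaling to the 75th percentile and -1.47 with normexp. The second Dll1 probe was well above background in Hepa1-6 TECs alone and gives no ratio. Dll4, the Delta ligand of tip cells and arteries, was at 9.78 in LSECs, 8.48 in HAK-1B TECs, 7.99 in Hepa1-6 TECs and 9.99 in KYN-2 TECs. It was lower than LSEC in HAK-1B TECs (2.46-fold) and Hepa1-6 TECs (3.46-fold), and 1.16-fold higher in KYN-2 TECs. In cultured Hepa1-6 cells neither Delta ligand was well above background, which puts Dll1 at least 4.45-fold and Dll4 at least 14.1-fold below LSEC. These bounds too depend on the processing. With normexp the log2 ratios of Dll1 and Dll4 there were -2.14 and -3.14, smaller in size than the bounds.

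The receptors differed from each other in direction. Notch1 was lower in every TEC, Notch2 was higher in every TEC, and Notch4 differed between tumor lines. Notch1, the receptor through which Dll4 acts in vessels, had log2 signals of 10.56 in LSECs, 7.76 in HAK-1B TECs, 7.71 in Hepa1-6 TECs, 7.11 in KYN-2 TECs and 7.39 in cultured Hepa1-6 cells. By this probe the LSEC array stood apart from the others, which lay close together. The TEC signals were 6.96-fold, 7.20-fold and 10.9-fold below LSEC, with a mean log2 ratio of -3.03 ± 0.36 (SD, n = 3 tumor lines).

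The second Notch1 probe, A_55_P2722000, is placed 34.5 kb away in the design and carries the name of an Ensembl transcript. It read 7.41 in LSECs, 6.67 in HAK-1B TECs, 5.21 in Hepa1-6 TECs and 5.75 in KYN-2 TECs. All TECs were again below LSECs, by 1.67-fold, 4.59-fold and 3.15-fold, so both probes gave the same direction and different sizes. In cultured Hepa1-6 cells the second probe read 3.21, not well above background. The closeness of the cultured cells to the TECs in Notch1 thus rests on the first probe.

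Notch2, the receptor most tied to bile duct development in the liver, had log2 signals of 9.99 in LSECs, 11.82 in HAK-1B TECs, 10.96 in Hepa1-6 TECs, 10.97 in KYN-2 TECs and 10.85 in cultured Hepa1-6 cells. It was 3.55-fold, 1.95-fold and 1.97-fold above LSEC in the TECs. Hepa1-6 TECs and cultured Hepa1-6 cells differed by a log2 value of 0.11. The second Notch2 probe was well above background in Hepa1-6 TECs alone, though it read 4.29 both there and in KYN-2 TECs, and gives no ratio.

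Notch4 had a log2 signal of 14.15 in LSECs, 13.33 in HAK-1B TECs, 12.65 in Hepa1-6 TECs, 14.32 in KYN-2 TECs and 7.44 in cultured Hepa1-6 cells by the probe with the highest mean signal. Every endothelial array was far above the cultured cells, and among the TECs the order was KYN-2, HAK-1B and Hepa1-6. The ratio to LSEC was 1.76-fold lower in HAK-1B TECs, 2.83-fold lower in Hepa1-6 TECs, 1.13-fold higher in KYN-2 TECs and 105-fold lower in the cultured cells. The probe printed above, 3.61 kb away, kept the order of the TECs, with log2 ratios of -0.30, -1.40 and 0.73. The third probe with this name, which the design places 379 kb away, was not well above background on any array.

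Rbpj, through which all Notch receptors act, was higher than LSEC on every other array by both of its probes. The probe with the higher signal read 9.41 in LSECs, 12.03 in HAK-1B TECs, 11.45 in Hepa1-6 TECs, 12.05 in KYN-2 TECs and 11.18 in cultured Hepa1-6 cells. The TECs were 6.13-fold, 4.11-fold and 6.21-fold above LSEC, a mean log2 ratio of 2.43 ± 0.34 (SD, n = 3 tumor lines). The probe printed above, 20012 bases from it, gave 4.41-fold, 4.42-fold and 3.88-fold. Cultured Hepa1-6 cells were 3.41-fold and 2.97-fold above LSEC by these probes, and Hepa1-6 TECs lay above the cultured cells by log2 values of 0.27 and 0.57.

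**Figure D2:**
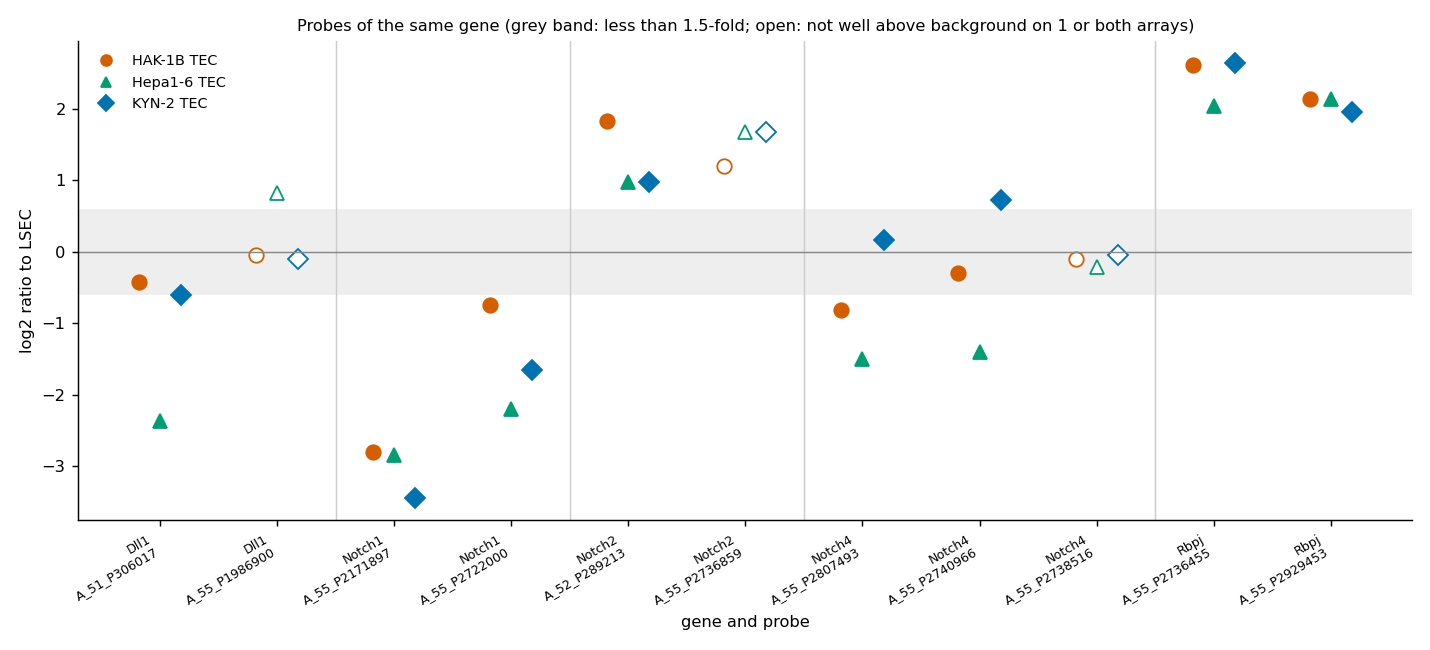
Log2 ratio to LSEC (vertical axis) of each probe of the 5 genes with more than 1 probe, for the 3 TECs. Filled points are well above background on both arrays and the grey band is less than 1.5-fold. The Rbpj probes lie between 1.95 and 2.64, both Notch1 probes lie below 0, and the second probes of Dll1 and Notch2 and the third of Notch4 are open.

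The targets separated. Hes1 was lower in every TEC, and Hey1 lay within 2-fold of LSEC in each. Hes1, a repressor that many signals besides Notch can induce, had log2 signals of 10.09 in LSECs, 6.77 in HAK-1B TECs, 6.56 in Hepa1-6 TECs, 7.91 in KYN-2 TECs and 7.92 in cultured Hepa1-6 cells. LSECs were above all others, and KYN-2 TECs and the cultured cells stood at nearly the same value. The TECs were 9.99-fold, 11.6-fold and 4.53-fold below LSEC, a mean log2 ratio of -3.01 ± 0.73 (SD, n = 3 tumor lines).

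Hey1, a vascular repressor of the same family, had log2 signals of 9.40 in LSECs, 9.62 in HAK-1B TECs, 8.86 in Hepa1-6 TECs, 10.29 in KYN-2 TECs and 2.81 in cultured Hepa1-6 cells, where it was not well above background. The endothelial arrays lay together and the cultured cells stood far below. The ratio to LSEC was 1.17-fold higher, 1.46-fold lower and 1.86-fold higher in the TECs. The mean log2 ratio of 0.19 ± 0.72 (SD, n = 3 tumor lines) was smaller than its spread, and without KYN-2 TECs it was -0.16. In the cultured cells Hey1 was at least 10.8-fold below LSEC.

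**Figure D3:**
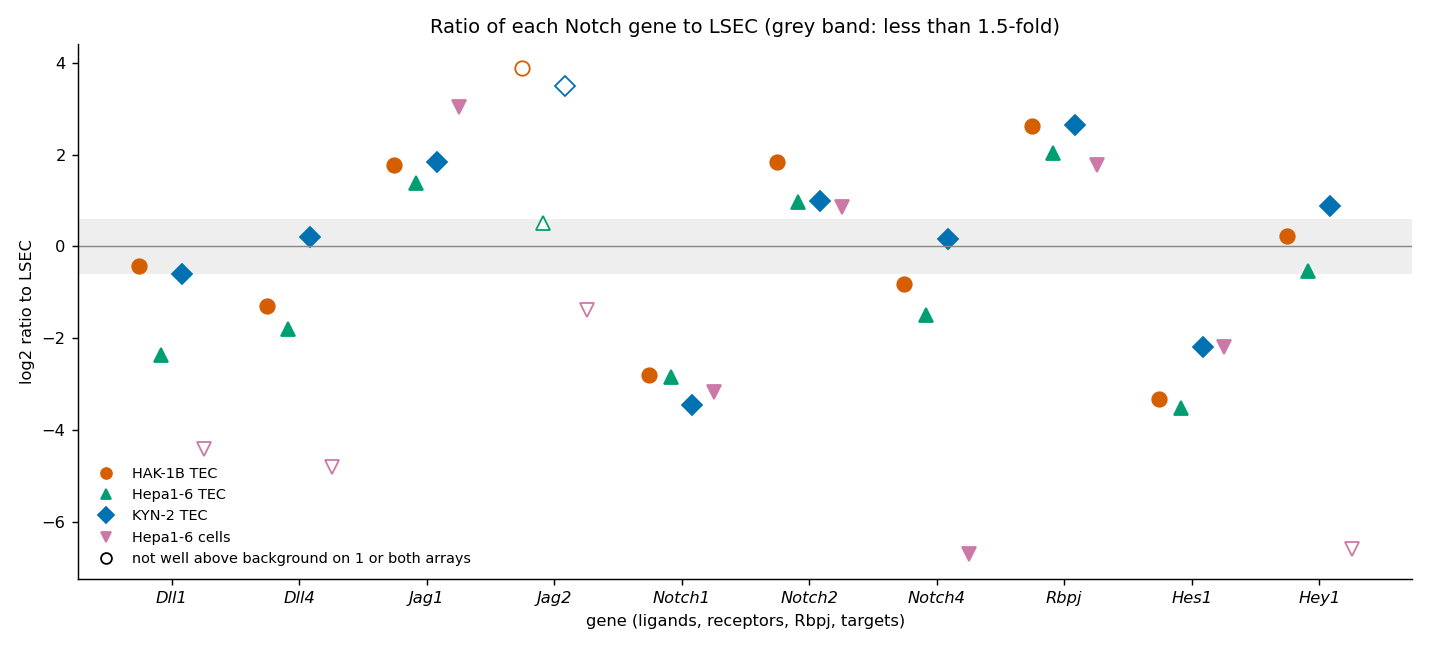
Log2 ratio to LSEC of the 10 Notch genes in the 3 TECs and in cultured Hepa1-6 cells, 1 probe per gene. Open points are not well above background on 1 or both arrays and are not measured ratios, and the grey band is less than 1.5-fold. Jag1, Notch2 and Rbpj lie above the band in all TECs, and Notch1 and Hes1 lie below it.

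Counted together, 3 of the 10 genes (Jag1, Notch2 and Rbpj) were at least 1.5-fold higher in all 3 TECs and 2 (Notch1 and Hes1) at least 1.5-fold lower. Over the 26771 genes present on at least 1 endothelial array, 10.3% were higher and 13.9% lower by the same ratio. The median over the 10 genes of the mean log2 ratio was -0.26, against 0.10 over all these genes. The TEC comparisons share the LSEC array, so a high or low value there enters all of them. At a ratio of 2, 2 genes stayed higher (Jag1 and Rbpj) and the same 2 lower. The share of all genes at that ratio was not counted.

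The study's own rule of size asks for more. Its ratio of 1.5 has to come with a Z-score of 2, or its ratio of 0.66 with a Z-score of -2, where the Z-score sets a log2 ratio against the spread of all kept probes. The study normalized each pair of samples alone before this rule, whereas here it was applied to the 5 arrays normalized together. This amounted to 7.25-fold higher or 6.91-fold lower in HAK-1B TECs, 11.4-fold or 9.84-fold in Hepa1-6 TECs, 6.79-fold or 6.77-fold in KYN-2 TECs, and 39.8-fold or 51.2-fold in cultured Hepa1-6 cells. In HAK-1B TECs it called Jag2 higher and Notch1 and Hes1 lower, of 10 genes, where 3.11% of all genes were called higher and 3.94% lower. The Notch1 ratio stood just past the limit there, with a Z-score of -2.01, and was not called with scaling to the 75th percentile (-1.90). With each pair normalized alone, as the study did, it was not called either (-1.91), which left 2 genes, Jag2 and Hes1. The calls in the other comparisons were the same under that normalization. The Notch1 call in HAK-1B TECs stood with the deposited table (-2.06) and with normexp background correction (-2.54), which also called Rbpj higher.

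In Hepa1-6 TECs the rule called Hes1 lower and no other Notch gene of 10 (background 4.55% higher and 2.04% lower). With normexp the rule also called Notch1 lower there (Z-score -2.53). In KYN-2 TECs it called Jag2 higher and Notch1 lower (background 3.64% and 2.87%), and with normexp background correction Rbpj took the place of Jag2. In cultured Hepa1-6 cells it called Notch4 and Hey1 lower, of 9 genes, Jag2 being present on neither array (background 2.59% higher and 4.81% lower). The Hey1 call there rests on a signal not well above background, and its bound of 10.8-fold is under the limit. The median log2 ratio of the Notch genes was -0.10 in HAK-1B TECs, -1.02 in Hepa1-6 TECs, 0.55 in KYN-2 TECs and -3.17 in the cultured cells, against 0.00, 0.09, -0.05 and -0.02 over all genes kept.

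Other genes of the pathway were read from lists of their roles. Of 62 genes, 59 were present on at least 1 endothelial array, of which 6 were at least 1.5-fold higher in all 3 TECs, 10 lower and 43 neither. These are shares of 10.2% and 16.9%, beside 10.3% and 13.9% of all genes. Their median log2 ratio was 0.01 in HAK-1B TECs, -0.37 in Hepa1-6 TECs and -0.10 in KYN-2 TECs. The TECs are given in this order throughout.

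Among the other ligands and receptors, Notch3, the receptor of mural cells, read 9.24 in LSECs and 9.24, 8.87 and 9.48 in the TECs, within 1.5-fold on each array. Egfl7, a secreted endothelial protein that binds Notch receptors, was 7.17-fold, 5.88-fold and 3.69-fold lower in the TECs. Dner, a neuronal Notch ligand whose LSEC signal was not well above background, was at least 2.20-fold, 5.31-fold and 3.40-fold higher in the TECs. Dll3 and Dlk1 were not well above background on any array.

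The ubiquitin ligases that act on ligands went both ways. Neurl1a, Neurl1b and Neurl2 were higher in every TEC, with mean log2 ratios of 1.51 ± 0.69, 1.45 ± 0.60 and 1.86 ± 0.73 (SD, n = 3 tumor lines). Mib1, the ligase needed for ligand endocytosis, was lower at -0.86 ± 0.13, though its other probe had a mean above 0. Of 6 such genes, the other two passed in neither direction.

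Of 5 genes for receptor glycosylation, Pofut1, which adds O-fucose to Notch, was lower in every TEC (-1.05 ± 0.12). Its 4 probes did not all point the same way, and of the others above background 2 had a mean above 0 and 1 below. Lfng, Mfng and Rfng, the Fringe enzymes that set which ligand a receptor prefers, passed in neither direction. Of 9 genes for receptor cleavage only Aph1b, a gamma-secretase subunit, passed (-1.93 ± 0.45, lower), and its other probe had a mean above 0. The sheddase Adam10 passed in neither direction.

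Of 8 coactivators, Maml2, which bridges Notch and Rbpj to the transcription machinery, was lower at -1.37 ± 0.44 and the acetyltransferase Kat2b at -1.20 ± 0.31. Of 12 corepressors, Tle1 (-1.58 ± 0.72) and Hdac1 (-1.48 ± 0.22) were lower and Tle3 was higher (0.95 ± 0.35), though 1 of its 3 other probes had a mean below 0. Among 9 genes for receptor inhibition and turnover, Numb, an inhibitor of Notch receptors, was 4.42-fold, 4.49-fold and 4.26-fold lower. Dtx4, a Deltex ubiquitin ligase that acts on Notch receptors, read 7.63 in LSECs, 12.67 in HAK-1B TECs, 11.25 in Hepa1-6 TECs, 11.34 in KYN-2 TECs and 9.54 in cultured Hepa1-6 cells. Its ratios of 33.0-fold, 12.3-fold and 13.1-fold exceeded those of any other gene in these lists, and it was the only one of the 62 called higher in all 3 TECs by the rule of size. The share of all genes so called in all 3 TECs was not counted.

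Of 7 further targets, Hes7 was lower in every TEC (-1.36 ± 0.92). Nrarp, a target that in turn damps Notch, read 6.63 in LSECs and 6.83, 5.37 and 8.27 in the TECs. Among the endothelial arrays it was highest in KYN-2 TECs and lowest in Hepa1-6 TECs, as were Dll4, Notch4 and Hey1. Efnb2, an arterial target, read 11.34 in LSECs and 10.57, 10.52 and 11.55 in the TECs. Hey2 was not well above background on any array.

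**Figure D4:**
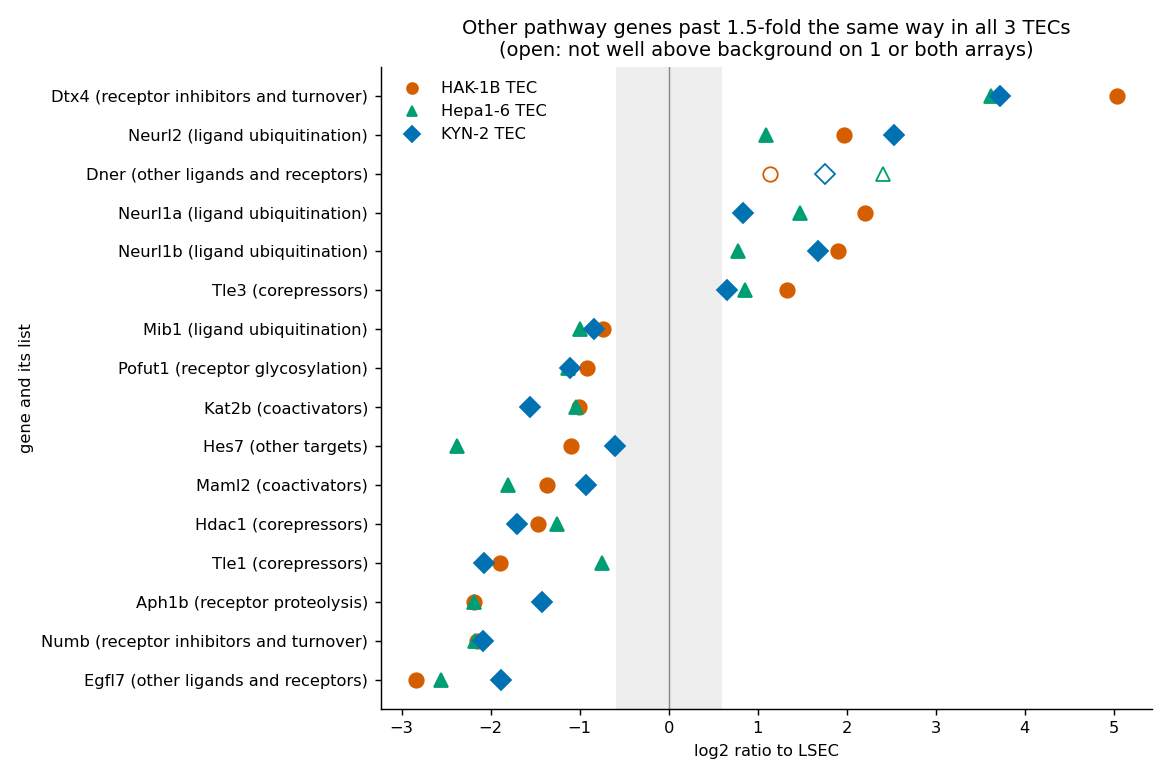
Log2 ratio to LSEC (horizontal axis) of the 16 other pathway genes that were at least 1.5-fold higher or lower in all 3 TECs, with the list of each. Points are the 3 TECs, open where not well above background on 1 or both arrays. Dtx4 lies between 3.62 and 5.04, and the Numb points nearly coincide.

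The endothelial markers were mostly lower in TECs. Of 12 pan-endothelial genes, 10 were at least 1.5-fold lower in all 3 TECs and none higher, with median log2 ratios of -2.86, -2.66 and -1.63. All 12 were well above background on every endothelial array and 3 of 12 in the cultured cells, and their summed signal was 383906 in LSECs, 53004, 49997 and 106247 in the TECs and 1889 in cultured cells. The LSEC markers were lower in every TEC for 11 of 12. Lyve1 was the exception. Of 6 arterial genes Gja4 and Nrp1 were lower, Cxcr4 was higher and the other three passed in neither direction.

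Read against these markers, the Notch genes took other places. Jag1, Jag2, Notch2, Rbpj and Hey1 had a higher ratio than each of the 12 pan-endothelial genes in every TEC. The median ratio over all genes kept, given above, was also above the pan-endothelial median in every TEC. It was above all 12 pan-endothelial genes in HAK-1B and Hepa1-6 TECs, and below Emcn alone in KYN-2 TECs. The share of all genes above all 12 was not counted, so this place cannot be read as particular to the Notch genes. Hes1 had a higher ratio than only 3, 1 and 4 of the 12, and Notch1 than 7, 5 and 0. With the median log2 ratio of the pan-endothelial genes subtracted, a scale chosen after the data were seen, Notch1 was at 0.06, -0.19 and -1.82 and Hes1 at -0.46, -0.88 and -0.55. On that scale 7 Notch genes were at least 1.5-fold higher in all 3 TECs and 0 lower. The subtraction raises every gene of an array by the same amount, and the share of all genes passing was not counted. The count therefore cannot be read as particular to the Notch genes. The part of the endothelial share of cells in these ratios was not tested.

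Markers of other cells also differed between the arrays. The 6 hepatoma genes, all well above background on every endothelial array, summed to 1634 in LSECs, 1184 in HAK-1B TECs, 135472 in Hepa1-6 TECs, 7473 in KYN-2 TECs and 299239 in cultured Hepa1-6 cells. The HAK-1B and KYN-2 lines are human and the array is for mouse, so a low sum there does not show that tumor cells were absent. How far human transcripts bind the mouse probes, of these genes or of the Notch genes, was not tested. Jag1, Notch2 and Rbpj, higher in every TEC, were also above LSEC in the cultured Hepa1-6 cells. The hepatoma genes did not all follow their sum, and in HAK-1B TECs H19 was 8.80-fold and Gpc3 3.74-fold above LSEC. H19 and Igf2 were not well above background in cultured Hepa1-6 cells, and H19 was higher in every TEC. The 6 neutrophil genes summed to 2103 in LSECs and 153161, 35893 and 6282 in the TECs, and none was well above background in the cultured cells. Of the 9 stellate, mural and fibroblast genes, Pdgfrb, Tagln, Col1a1 and Col3a1 were higher in every TEC, and 6, 8, 9 and 8 of the list were well above background on the LSEC array and those of the TECs.

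The 8 macrophage genes were well above background on every endothelial array, LSECs included, with sums of 774323, 690455, 405997 and 478195. Clec4f, Timd4 and Cd5l, markers of the resident macrophages of the liver, were lower in every TEC. The 8 hepatocyte genes summed to 17787, 901, 63501 and 1653, and 1, 1, 6 and 3 of the 6 cholangiocyte genes were well above background on these arrays. Of 8 T, NK and B cell genes, 6, 7, 8 and 6 were well above background. The flag was reached at lower signals on the Hepa1-6 TEC array, which enters these counts. The part of these cell types in the Notch ratios was not tested.

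**Figure D5:**
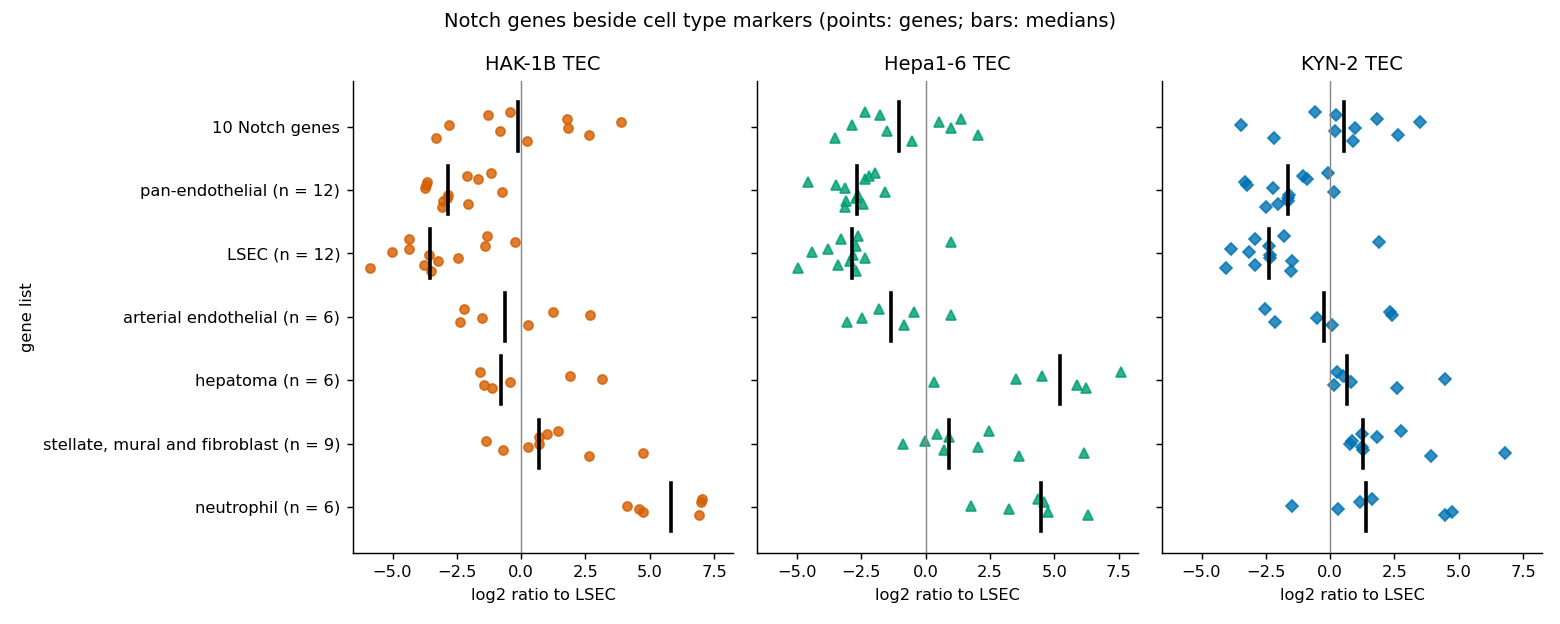
Log2 ratio to LSEC (horizontal axis) of the 10 Notch genes and of 6 marker lists in each TEC. Points are genes and bars are medians of each list. The pan-endothelial medians lie at -2.86, -2.66 and -1.63, and the Notch genes spread to both sides of 0.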

How the data were processed

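Gene expression was measured with 1 Agilent 1-colour (Cy3) array per condition. The authors deposited spot intensity on a linear scale, processed but not normalized between arrays, with spot flags of 0 or 1, and a table of normalized intensities used here as an alternative. The methods and labels give Feature Extraction 9.5.1.1, the file headers 10.7.1.1.

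Control spots were left out, spots of 1 probe were averaged and quantile normalization was run on the log2 values of all 5 arrays. A probe had to be flagged present on 1 or both arrays of a pair, or on 1 of the 4 endothelial arrays for the 1.5-fold counts, and lincRNA probes were dropped. A gene is represented by the probe whose mean signal was highest. All 16 member probes are described. Other pathway genes are named where at least 1.5-fold higher or lower in all 3 TECs, and any others were picked with their values in view. RefSeq held the accession of 12 member probes, all with the same symbol. "At least" folds set the brighter array against the higher of the dim probe's own signal and the lowest normalized signal well above background on the dimmer array. All such folds hold for the quantile-normalized signals only. The members and lists were chosen with earlier results of these data known. Simulated data with large known changes in bright probes were used to check the code of the calls. Their noise was smaller than the spread of these arrays, so they give no error rate for the calls made here. Software was Python 3.11.15, numpy 2.4.6, pandas 2.3.3 and limma 3.58.1 (normexp, offset 50). Alternatives were other normalizations, background correction, filters, probe summaries and each TEC left out.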

Additional observations from a re-analysis of the deposited data

Results flagged for a closer look

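A probe was listed here when it was at least 1.5-fold above LSEC in one tumor line and at least 1.5-fold below it in another. There were 7 such probes among the 16 Notch probes and the 62 other pathway genes, and with 1 array per line none of these differences was tested. The share of all probes that met this rule was not counted, so the 7 cannot be read as particular to the pathway. Notch4 (A_55_P2740966) differed by a log2 value of 2.13, from 0.73 in KYN-2 TECs to -1.40 in Hepa1-6 TECs. The Notch4 probe with the highest mean signal did not meet the rule, at 0.17 in KYN-2 TECs and -1.50 in Hepa1-6 TECs. Nrarp differed by 2.89 between the same lines, from 1.64 to -1.26. Hepa1-6 TECs were also the lowest for Adam17, by 1.63 below HAK-1B TECs, for Neurl3 by 1.52, for Hes5 by 1.76 and for Dlk2 by 1.24. Hes5 was well above background in HAK-1B and Hepa1-6 TECs alone, so its ratios to LSEC are not measured. Numbl ran the other way, with Hepa1-6 TECs 1.90 above HAK-1B TECs.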

How the results depend on the processing

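No paired analysis was possible because no condition had a second array. Without the Z-score, the rule called 8 of 10 Notch genes in each TEC and all 9 tested in cultured Hepa1-6 cells. The share of all genes called without the Z-score was not counted, so these counts cannot be read as particular to the Notch genes. With normexp, the rule called 4 in HAK-1B TECs, 2 in Hepa1-6 TECs and 1 in the cultured cells. With the median of all probes of a gene, it called 1 in KYN-2 TECs and 1 in the cultured cells. Without 1 TEC, the genes higher in the others numbered 3 to 4 and the genes lower 2 to 4, the 4 being without KYN-2 TECs, when Dll4 and Notch4 joined. The shares of all genes under these alternatives were not counted. Relative to the pan-endothelial genes, an alternative added after the data were seen, 7 were higher and 0 lower, and the mean log2 ratios of Dll1, Dll4 and Notch4 turned to 1.25, 1.42 and 1.67. That alternative raises every gene of an array by the same amount, so its counts are not particular to the Notch genes. Of 80 mean ratios under the other alternatives, 77 kept their sign and moved by less than the SD over the tumor lines, 2 moved further (Notch1, -2.64 with normexp and -2.28 with the median of its probes) and 1 turned (Hey1, -0.16 without KYN-2 TECs, in a range of -0.16 to 0.56 with each TEC left out). The cause of these differences was not tested. Scaling to the 75th percentile put the median of all kept probes 0.43 above LSEC in Hepa1-6 TECs, against 0.05 with quantile normalization, and Jag2 then passed 1.5-fold in all TECs. Values near background, such as Jag2 in LSECs, have only a bound, and 1 array per condition limits the precision of every value.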
